A study of Homo sapiens with 4 samples.

Results

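In untreated MDA-MB-231 cells, Smad peaks with no counterpart after TGFβ-1 had 2 modes of GC content, as had those with a counterpart. Of the 3511 peaks in the untreated list labelled LAP-Smad3, 918 (26.1%) overlapped by 1 bp or more no peak of either TGFβ-1 list, and these are called absent peaks. They were chosen by the called intervals of the untreated and both treated lists, and neither sequence nor peak height entered the choice. The other 2593 overlapped a treated peak and are called kept peaks. Of the absent peaks, 307 (33.4%) had at most 50% GC in the 200 bp around their centre. These were mostly repeated DNA between genes, and 208 of them (67.8%) lay in tandem repeats with a period of 171 or 342 bp. Kept peaks of this GC range also lay mostly between genes (90.8%), and 44.6% of them had this period. The other 611 (66.6%) had more than 50% GC. These were mostly unique sequence, with another copy for 10.6%, against 46.3% of kept peaks above 50% GC. Of the 611, 398 (65.1%) lay within 3 kb of a transcript start, against 54.9% of those kept peaks. In the 4 peak lists together there were 104156 peaks.

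MDA-MB-231 is a human breast cancer cell line. Its cells carried a bacterial artificial chromosome (BAC) with the Smad2 or the Smad3 gene fused to a LAP tag, which contains GFP, and kept their own untagged Smads. They were selected with Geneticin and sorted for GFP, so that each line is a sorted population. The tag was precipitated with anti-GFP for ChIP-seq, from untreated cells of each line and from cells given 10 ng/mL TGFβ-1 for 2 h, with 1 library for each of the 4 conditions. The 4 lists held 3511 peaks (untreated, labelled LAP-Smad3), 11266 (untreated, labelled LAP-Smad2), 26828 (LAP-Smad2 treated) and 62551 (LAP-Smad3 treated). Label and deposited name of each untreated list disagree on the Smad: the list studied here is labelled LAP-Smad3, but its deposited name and the names of its peaks say Smad2. The loci carried by the BACs were also counted. Within 100 kb of SMAD2 the list labelled LAP-Smad3 untreated held 20 peaks and the LAP-Smad2 treated list 27, against 4 in the LAP-Smad3 treated list and 2 in the list labelled LAP-Smad2 untreated. Within 100 kb of SMAD3 the same lists held 1, 1, 53 and 0 peaks. The SMAD2 and SMAD3 loci thus went against the label of the list studied here. The label is kept as a name, no sample was moved, and no direction between the 2 Smads is drawn from it. The study's methods state a minimum number of reads, but the depth of each library is not given in the sources used here, so that absence from a treated list means that no peak was called there and cannot be told apart from a change in depth, line or background. Without replicate libraries, no difference between conditions was tested, and all intervals cover counting error over peaks only.

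Smad2 and Smad3 are receptor-activated Smads. They are phosphorylated by the type I TGFβ receptor, join Smad4 and accumulate in the nucleus, but they shuttle between cytoplasm and nucleus also in the resting cell. Smad3 binds a short GTCT element and GC-rich motifs such as GGCGC and GGCCG directly, with low affinity, and Smads therefore depend on partner factors at most sites. Alpha satellite is the main DNA of human centromeres, built of a tandemly repeated monomer that also forms dimers and longer units, and GGAAT repeats are the core of human satellites II and III. Copies of mitochondrial DNA are also found inserted in the nuclear chromosomes.

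The following sequences, all from hg38 on the plus strand unless stated, show the kinds of DNA that made up the absent peaks. The first pair shows the 171 bp period in the strongest absent peak of that kind, chr3:90542575-90542893: a stretch of its window at chr3:90542704-90542763 and the stretch 171 bp downstream at chr3:90542875-90542934, with differing bases in capitals (50 of 60 bases the same).
chr3 array stretch: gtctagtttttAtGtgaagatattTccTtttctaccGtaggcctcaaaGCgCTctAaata
chr3 array stretch, 171 bp on: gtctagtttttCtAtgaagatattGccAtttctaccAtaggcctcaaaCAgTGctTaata
The second pair shows the longer period, in the peak at chr19:26148546-26148907: the stretch at chr19:26148697-26148756 and that 340 bp downstream at chr19:26149037-26149096 shared 57 of 60 bases, again with differences in capitals.
chr19 array stretch: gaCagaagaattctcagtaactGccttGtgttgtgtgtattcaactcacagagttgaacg
chr19 array stretch, 340 bp on: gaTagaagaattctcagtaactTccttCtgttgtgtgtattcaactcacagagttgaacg
The window at chr21:10667124-10667323 shows the 5 bp repeat, with its 20 copies of ATTCC in capitals.
chr21 5 bp repeat: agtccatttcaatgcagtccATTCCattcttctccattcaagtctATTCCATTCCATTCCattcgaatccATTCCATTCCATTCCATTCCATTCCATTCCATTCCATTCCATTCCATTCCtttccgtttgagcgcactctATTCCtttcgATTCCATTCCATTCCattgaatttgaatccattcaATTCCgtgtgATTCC
The strongest absent peak of all was a copy of mitochondrial DNA. Its window, of which chr17:22523953-22524151 is shown, matched the mitochondrial genome (bases 2524 to 2722) at 187 of 199 bases, with differences in capitals.
chr17 nuclear copy: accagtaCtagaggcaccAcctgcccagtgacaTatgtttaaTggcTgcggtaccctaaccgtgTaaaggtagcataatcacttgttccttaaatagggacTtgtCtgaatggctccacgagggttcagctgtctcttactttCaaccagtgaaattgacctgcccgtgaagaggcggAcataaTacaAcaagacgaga
mitochondrial stretch: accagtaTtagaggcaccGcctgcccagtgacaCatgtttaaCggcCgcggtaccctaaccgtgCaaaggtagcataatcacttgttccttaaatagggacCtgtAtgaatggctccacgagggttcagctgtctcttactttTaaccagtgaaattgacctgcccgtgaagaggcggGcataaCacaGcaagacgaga
Promoters of the GC-rich group are shown by the windows of the peaks at the starts of MACROH2A2 (chr10:70053901-70054100), IER3 (chr6:30744256-30744455) and PHC3 (chr3:170181211-170181410). These are the 3 strongest single-copy ones within 3 kb of a protein-coding start and outside untranslated regions, with GGCGC and GGCCG on either strand in capitals. They held 5, 4 and 3 matches, counting overlapping ones. Over the whole GC-rich group, 63.7% of windows held GGCGC and 73.2% held GGCCG, against 58.3% and 69.2% of GC-rich kept windows.
MACROH2A2 window: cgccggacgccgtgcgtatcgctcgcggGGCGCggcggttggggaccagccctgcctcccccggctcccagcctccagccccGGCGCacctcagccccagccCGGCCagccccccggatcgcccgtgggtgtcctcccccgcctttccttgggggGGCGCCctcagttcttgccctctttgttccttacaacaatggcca
IER3 window: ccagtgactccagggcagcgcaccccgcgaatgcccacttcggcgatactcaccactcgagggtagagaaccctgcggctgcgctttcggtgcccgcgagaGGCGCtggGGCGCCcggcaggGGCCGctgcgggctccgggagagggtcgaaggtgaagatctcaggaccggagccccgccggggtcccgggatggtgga
PHC3 window: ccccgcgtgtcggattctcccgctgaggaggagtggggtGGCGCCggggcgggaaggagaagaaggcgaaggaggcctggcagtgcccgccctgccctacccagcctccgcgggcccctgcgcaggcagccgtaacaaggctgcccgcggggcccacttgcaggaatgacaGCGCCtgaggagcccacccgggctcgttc

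The GC content of the absent peaks had 2 modes with few windows between them. It ran from 23.5% to 83.5%, with quartiles of 40.5% and 71.0% and a median of 65.5% (95% interval 64.5 to 66.5). The mean was 59.1% ± 15.2 (SD over 918 windows), a value at which few windows lay: only 34 (3.70%) had 45 to 55% GC, while 257 had 35 to 45% and 473 had 60 to 75%. Within the modes the spread was small. The windows of at most 50% GC had a median of 39.0% (mean 39.0% ± 3.70), and those above 50% a median of 69.5% (mean 69.2% ± 5.92). The kept peaks had the same 2 modes in other proportions, with 42.2% at most 50% GC and a median over all of 61.0% (60 to 62.5). The share at most 50% GC was 8.79 percentage points lower among absent peaks (5.14 to 12.3 lower). Within 4 near-equal parts of the list by −log10 q the direction was the opposite, with low-GC peaks absent more often than GC-rich ones. From the weakest to the strongest part the shares were 60.8 against 37.2%, 44.9 against 32.1%, 26.8% (22.6 to 31.5) against 24.2% (20.6 to 28.2) and 3.73% (2.54 to 5.45) against 1.44% (0.492 to 4.15). The last 2 pairs of intervals overlapped, and the strongest part held only 3 GC-rich absent peaks. In a grid of 29367 windows, 1 for each 100 kb of hg38, 83.6% had at most 50% GC. The division at 50% was chosen after the distribution had been seen.

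**Figure D1:**
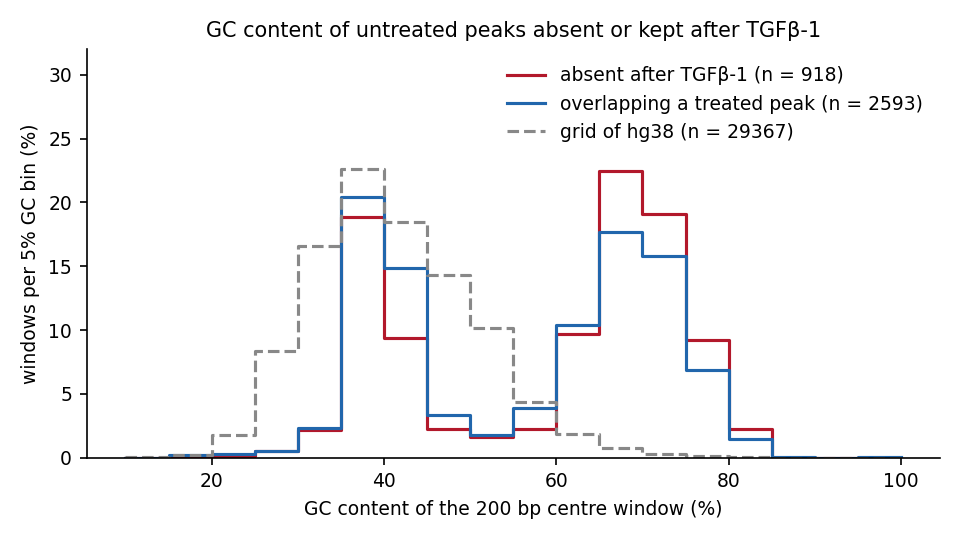
GC content (%) of the 200 bp centre windows of absent peaks (red), kept peaks (blue) and grid windows (grey, dashed), as the percentage of windows in each bin of 5% GC. Both peak groups have a low mode near 39% and a high mode near 69%, and the high mode holds 66.6% of absent and 57.8% of kept peaks.

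The low-GC absent peaks were mostly repeats. Of the 307, 250 (81.4%, 76.7 to 85.4) had another copy in hg38, that is a second alignment with 90% or more of the 200 bases matching, and 194 (63.2%) reached the limit of 51 listed alignments. Kept peaks of the same GC range had another copy in 75.8% and reached the limit in 42.9%. The higher share with a copy did not hold within the 4 parts by −log10 q. There it was 78.2, 88.0, 84.5 and 56.0% of low-GC absent against 91.1, 89.4, 81.9 and 69.5% of low-GC kept peaks from the weakest to the strongest part, lower among absent peaks in 3 of 4 parts. A period of 171 or 342 bp, the monomer and dimer of the main long repeat of hg38, was found in 208 (67.8%) absent against 488 (44.6%) kept peaks, a difference of 23.2 percentage points (17.0 to 29.0). A period of 5 bp went the other way, with 33 (10.7%) absent against 419 (38.3%) kept peaks, a difference of -27.5 points (-31.7 to -22.6). The 2 satellite types were thus found in different proportions in absent and kept peaks, but these shares were not divided by −log10 q. Its median was 4.72 in absent and 8.04 in kept peaks with the 171 or 342 bp period, and 7.29 and 13.9 with the 5 bp period. Only 1 of the 307 lay within 3 kb of a protein-coding start, and 270 (87.9%) lay between genes. The low-GC kept peaks were alike in this, with 4 of 1095 at a protein-coding start and 994 (90.8%) between genes. Of the 307, 25 had no tandem repeat, other copy or mitochondrial match, with a median GC content of 34.0% and −log10 q values of 1.41 to 5.74. Of these 25, 13 lay in introns and 8 between genes.

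In the grid of hg38 windows described above, 171 bp was the most frequent repeat length between 100 and 250 bp (244 of 307 tandem windows), which is the length of the alpha satellite monomer. Arrays with the 171 or 342 bp period held 209 absent peaks on 22 chromosomes, 1 of them above 50% GC. Chromosome 19 had 34 of them, all from 24640813 to 27174391. Chromosome 5 had 30 (from 46917768 to 50239186), chromosome 1 had 24 (from 121728052 to 124876106), chromosome 17 had 21 and chromosome 3 had 16. The repeat length was near the monomer in 62 (58 at a lag of exactly 171 bp) and near the dimer in 147, of which 89 had a lag of 340 bp. Identity at the best lag had a median of 61.5% and ranged from 45.4% to 95.9%, so that both divergent and near-identical repeats were found. Of the 209, 206 had another copy and 207 lay between genes. Across the lists the period was uneven. It was found in 19.9% of the peaks labelled LAP-Smad3 untreated and in 5.15% of LAP-Smad2 treated peaks, but in 0.559% of peaks labelled LAP-Smad2 untreated and 0.0959% of LAP-Smad3 treated peaks, beside 2.31% of the grid. The first 2 of these lists are also those with most peaks at the SMAD2 locus. None of the 208 low-GC absent peaks of this kind and none of the 488 kept ones was in the other untreated list. In that list, 16 of 17 absent and 43 of 46 kept peaks with the period were above 50% GC.

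Clustering along the chromosomes followed these arrays. The absent peaks fell into 564 bins of 1 Mb, of which 392 held 1 absent peak. In the 23 bins with 5 or more there were 168 absent peaks, 151 of them with at most 50% GC. The fullest bins were 26 to 27 Mb and 25 to 26 Mb of chromosome 19, with 14 and 13 absent peaks that all had the 171 or 342 bp period. The bins with 5 or more that held GC-rich peaks alone were 1 each on chromosomes 6, 17 and 19, with 6, 6 and 5 absent peaks. The share of the list that was absent ranged from 40.1% on chromosome 19 (75 of 187) and 38.1% on chromosome 3 (43 of 113) to 8.96% on chromosome Y (12 of 134). All 12 absent peaks on chromosome Y had at most 50% GC, and 7 of them had the 5 bp period.

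**Figure D2:**
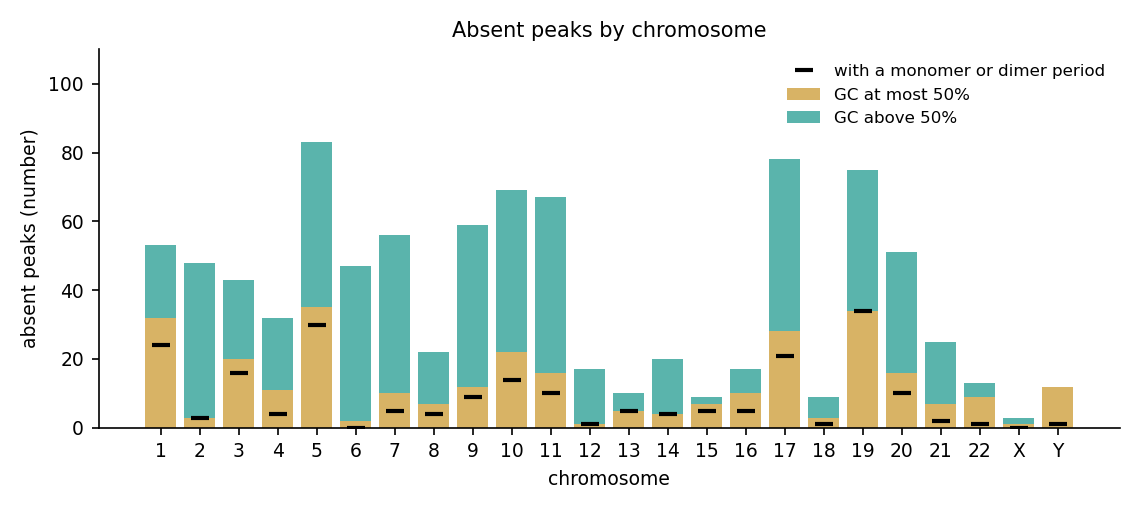
Number of absent peaks on each chromosome, divided into windows of at most 50% GC (sand) and above 50% GC (green), with black marks for those with a 171 or 342 bp period (monomer or dimer). On chromosome 19 all 34 low-GC absent peaks have this period, and chromosome 2 has 45 of 48 absent peaks above 50% GC.

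The peaks with a 5 bp period were few among absent peaks. There were 34, on 11 chromosomes, with a median of 16 copies of GGAAT or its complement in 200 bp, against a mean of 0.443 in the grid. Their copies differed, since 13 of 34 had another alignment at 90% identity. The peak at chr21:10667110-10667337, shown above, had a fold enrichment over local background of 4.11 and a −log10 q of 13.5. Of the 33 at most 50% GC, 8 were in the other untreated list. The 33 had a median −log10 q of 7.29 and a median fold of 3.78, against 4.29 and 3.80 over all absent peaks. Of the 452 peaks of the list with this period and GC range, 33 (7.30%, 5.25 to 10.1) were absent, below the 26.1% of the whole list. Of the 696 with the 171 or 342 bp period, 208 (29.9%, 26.6 to 33.4) were absent.

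Windows similar to mitochondrial DNA were a small group with high scores. There were 9 among absent peaks, all at most 50% GC, and 45 among kept peaks. None was in the other untreated list. The 9 had −log10 q values from 4.69 to 15.8 (median 10.8), and the kept ones from 3.95 to 115 (median 25.8). Of the 6 absent peaks with the highest −log10 q, 4 were of this kind: chr17:22523950-22524154 (fold 4.69, −log10 q 15.8), chr5:100052875-100053083 (fold 5.0, 15.7) in the mitochondrial pseudogene MTCO2P22, chr5:60761805-60762147 (fold 6.20, 12.9) in an intron of ELOVL7, which encodes a fatty acid elongase, and chr4:155463979-155464324 (fold 6.50, 12.3). The first lay 117 bp from a treated peak. How reads that align to several places were handled is not given in the sources used here, and the part of read placement in the results on repeats and mitochondrial copies was not tested.

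The GC-rich absent peaks were mostly single-copy. Another copy was found for 65 of 611 (10.6%, 8.43 to 13.3) against 693 of 1498 kept peaks (46.3%, 43.7 to 48.8), a difference of -35.6 percentage points (-39.0 to -31.9). The difference was in the same direction in each of 4 near-equal parts of the list by −log10 q, with 15.4, 6.48, 6.67 and 33.3% of absent against 33.3, 40.3, 54.3 and 74.1% of kept peaks from the weakest to the strongest, but the strongest part held 3 GC-rich absent peaks. Read the other way, 65 of the 758 GC-rich peaks with another copy were absent (8.58%), against 546 of 1351 without one (40.4%, 37.8 to 43.1). The 65 lay on 20 chromosomes, with at most 8 on 1 chromosome, and had a median of 3 listed alignments. Of them, 28 were at promoters, 26 in introns and 11 between genes.

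**Figure D3:**
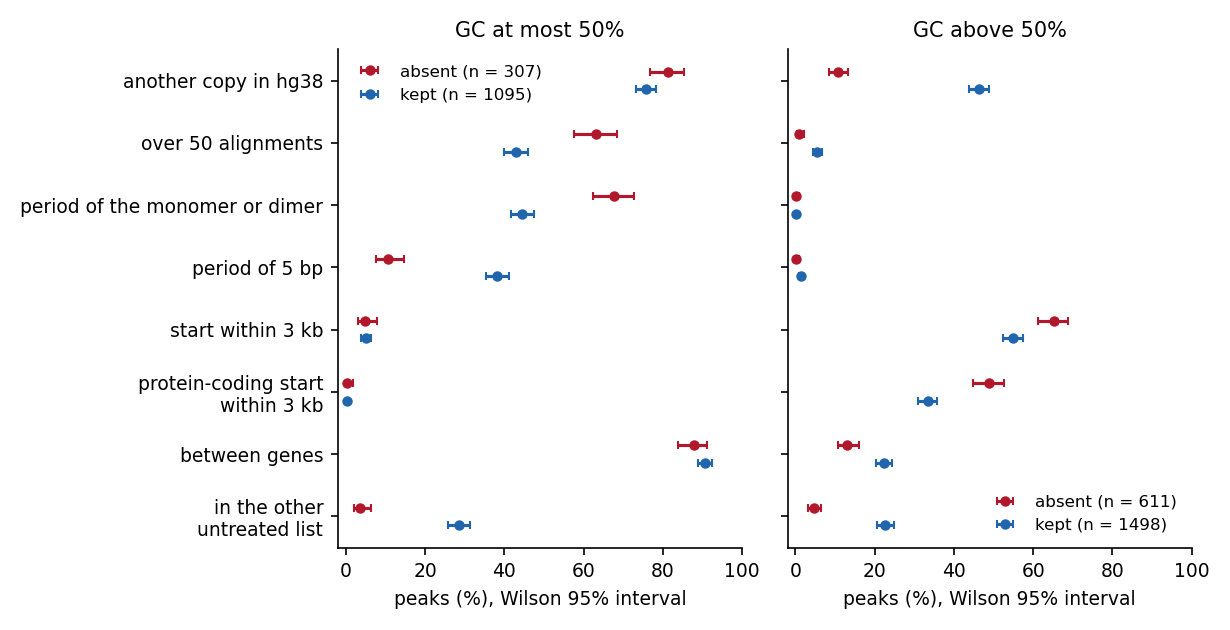
Percentage of absent (red) and kept (blue) peaks with each feature, for windows of at most 50% GC (left) and above 50% GC (right), with Wilson 95% intervals. Wide gaps on the left include the monomer or dimer period of 171 or 342 bp (67.8 against 44.6%) and the 5 bp period (10.7 against 38.3%). Over 50 alignments (63.2 against 42.9%) and the other untreated list (3.58 against 28.5%) are further ones there. On the right they include the other copies (10.6 against 46.3%) and the other untreated list (4.58 against 22.7%).

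Promoters were more frequent among GC-rich absent peaks than among GC-rich kept peaks. A transcript start of any gene type lay within 3 kb of 398 of 611 (65.1%, 61.3 to 68.8) against 54.9% of kept peaks. For protein-coding starts these shares were 48.8% and 33.4%, a difference of 15.4 points (10.8 to 20.0). A start lay inside the interval itself for 116 (19.0%) against 14.7%. The remaining 213 lay in introns (106), in exons (27) and between genes (80). Among GC-rich single-copy peaks alone, however, 288 of 707 (40.7%) at protein-coding promoters and 39.2% of 449 with no start within 3 kb were absent, a difference of 1.54 points (-4.27 to 7.27). CpG dinucleotides reached over 0.6 of the number given by the base composition in 57.8% of GC-rich absent and 59.4% of GC-rich kept windows. Over all absent peaks, 413 (45%) were at promoters, 28 (3.05%) in exons, 127 (13.8%) in introns and 350 (38.1%) between genes.

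**Figure D4:**
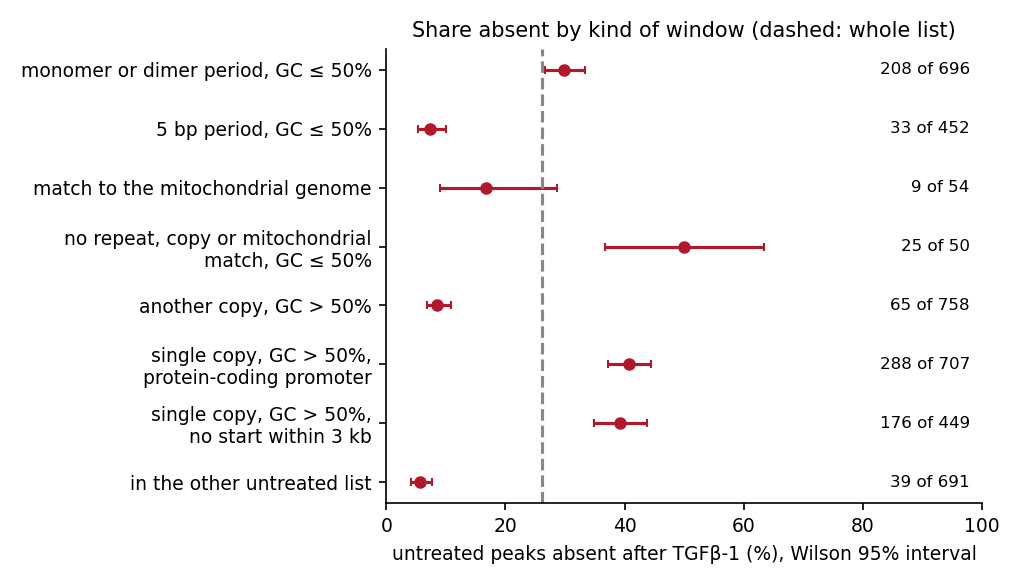
Percentage of untreated peaks of each kind that were absent after TGFβ-1, with Wilson 95% intervals and the numbers at the right. The dashed line is the 26.1% of the whole list. GC-rich single-copy peaks lie near 40% both at and away from promoters, and GC-rich peaks with another copy at 8.58%.

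The genes with an absent peak at a start were 332 protein-coding genes, through 299 peaks. The centre lay within 250 bp of the start in 157 of 334 pairs of gene and GC-rich peak and within 1 kb in 283 (84.7%), with 221 downstream and 113 upstream of the start. Of the 332 genes, 192 (57.8%) had a treated peak within 3 kb of any of their starts, and 140 had none. That start need not be the one near the absent peak. At DGLUCY, which had treated peaks at a start, the absent peak lay 46740 bp from any treated peak. Of all 19689 protein-coding genes, 51.6% had a treated peak at a start. The LAP-Smad2 treated list had one at 129 (38.9%) of the 332 genes and at 32.2% of all genes, and the LAP-Smad3 treated list at 118 (35.5%) and 32.6%. The treated lists entered the choice of the absent peaks. The shares over all genes are therefore given as background only, and no difference is read from them.

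The 25 promoter genes with the strongest absent peaks had −log10 q values of 6.43 to 9.13. Chromatin regulators were MACROH2A2 (ENSG00000099284.15), a histone variant gene, PHC3, a Polycomb component, and KDM2B, a histone demethylase that binds CpG islands. The MACROH2A2 peak at chr10:70053855-70054147 had a fold enrichment of 4.81 and a −log10 q of 9.13, and it lay 1121 bp downstream of the start and 103 bp from a treated peak. The PHC3 peak (fold 4.95, −log10 q 8.49) lay 419 bp downstream of the start, and no treated peak lay at a PHC3 start. The KDM2B peak (fold 4.89, −log10 q 6.43) lay 256 bp from a treated peak. Cytokine and stress genes were IL6ST, which encodes the shared IL-6 receptor subunit gp130, and IER3, an immediate early gene. The IL6ST peak (fold 5.0, −log10 q 7.30) had its centre 74 bp from the start and was 5732 bp from any treated peak. The IER3 peak (fold 4.19, −log10 q 8.81) lay 191 bp downstream of its start and upstream of FLOT1, with a treated peak of both lists at a start of each gene.

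Other genes among the 25 had various roles. EIF3F, a subunit of the translation initiation factor eIF3, had a peak of fold 5.39 and −log10 q 8.82 whose window had a further copy. HNRNPA3, an RNA-binding protein, had one of fold 4.96 and −log10 q 7.87. The actin-capping subunit CAPZA2 (fold 4.74) and the catenin gene CTNNA3 (fold 4.36) are cytoskeletal or junctional, and the ARHGAP22 peak had a fold of 5.34. ETV7, an ETS transcription factor, had the lowest fold of the 25, 3.46, at a distance of 65 bp from a treated peak. Some peaks were shared by divergent or nested genes: FASTKD3 and MTRR (fold 4.74, 90051 bp from a treated peak), BLCAP and the imprinted NNAT (fold 4.33), and DDB1, a subunit of CUL4 ubiquitin ligases, with TKFC (fold 4.62, 28725 bp). The others were NXPH3, OSER1, ERVH48-1, PDCD2L, WNK2, FAM200A and DPYSL5, with folds between 4.34 and 5.11. Of the 25 genes, only EIF3F had a window with another copy, and none of their peaks was in the other untreated list. No protein-coding gene had 3 or more absent peaks within 10 kb. Among the 26 with 2 were RAC1, DAB2IP, ARHGAP22 and PTPN14, a phosphatase.

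TGFβ pathway genes made up few of the genes near absent peaks. Of 76 genes in 9 lists, 6 (7.89%) had an absent peak within 10 kb, beside 3.51% of all 20033 protein-coding genes, and 5 (6.58%) had a kept peak, beside 6.03%. Among 13 negative feedback genes only PPM1A had one, a phosphatase that acts on R-Smads (fold 4.42, −log10 q 5.49, centre at -591 bp from the start). Of 6 Smad genes, SMAD2 and SMAD3 had one each within 10 kb. The SMAD3 peak at chr15:67065743-67065946 (fold 3.66, −log10 q 3.11) was 242 bp downstream of a start. The SMAD2 peak at chr18:47853182-47853508 had a fold of only 1.78 with a −log10 q of 5.82, and its window matched mitochondrial DNA. Both lie in loci that the BACs carry, and the part of BAC copies in them was not tested. Of 9 AP-1 genes ATF3 had one (fold 3.91, −log10 q 3.53). Of 14 ligands and receptors ENG, the co-receptor endoglin, had one (fold 3.16, −log10 q 3.19). That peak lay beyond the end of ENG, with its centre 38542 bp downstream of a start. Of 6 cytostatic genes CDC25A, a cell cycle phosphatase, had one (fold 4.01, −log10 q 4.65). The 4 ID genes, 6 EMT factors, 10 metastasis genes and 10 Hippo effectors had 0 absent peaks.

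Motifs were counted in the 200 bp windows on either strand, overlapping matches included, for the GC-rich absent peaks, the GC-rich kept peaks and windows at all 20033 protein-coding starts. GGCGC was in 63.7% (59.8 to 67.4), 58.3% and 53.0%, and GGCCG in 73.2% (69.5 to 76.5), 69.2% and 51.7%. GGGCGG, the core of the Sp1 site, was in 44.5, 40.1 and 46.9%, and the CCAAT box in 6.71, 7.41 and 25.9%. The E-box CANNTG was in 57.9, 50.1 and 51.3%, and CAGCTG, which it contains, in 20.3, 17.7 and 13.3%. In grid windows above 50% GC, CANNTG was in 71.0%. AGGTCA was in 8.18, 8.28 and 8.39% of the same 3 groups, and AATCCACA in 0.327, 0.0668 and 0.419%. The palindrome GTCTAGAC was in 0 of 918 absent windows, 2 of 2593 kept windows and 26 of 29367 grid windows. CAGACA was in 8.02, 8.28 and 10.4%, and the AP-1 site TGACTCA in 1.15, 1.07 and 2.61%. In low-GC windows CANNTG was in 81.8% of absent and 70.5% of kept peaks, AGGTCA in 16.0% and 9.59%, and AATCCACA in 2.93% and 1.55%, where the windows share repeat units and are not independent. A match is a run of letters, not a measured site.

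Absent peaks had lower scores and narrower intervals than kept peaks. Their −log10 q had a median of 4.29 (4.16 to 4.36) and a range of 1.41 to 15.8, whereas that of kept peaks had a median of 6.35 and reached 343. Median fold enrichment was 3.80 (range 1.46 to 6.50) against 3.91 (1.42 to 20.6), and the median width 220 bp against 278 bp. The smallest width of 200 bp was found in 213 absent (23.2%) and 251 kept peaks (9.68%). A wider interval overlaps a treated peak more easily, so that width is tied to the definition and is given as a description. In 4 near-equal parts of the list by −log10 q, the share absent was 41.0, 35.1, 25.3 and 3.19% from the weakest to the strongest. It fell in this order within both GC classes. Only 28 of 878 peaks with a −log10 q of 9.33 or more were absent.

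**Figure D5:**
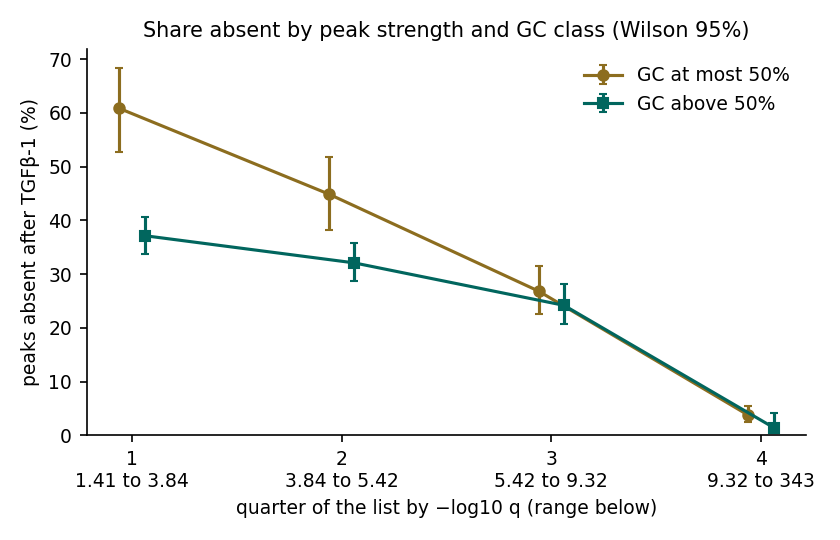
Percentage of untreated peaks absent after TGFβ-1 (vertical axis) in 4 near-equal parts of the list by −log10 q (horizontal axis, with ranges), for low-GC and GC-rich windows, with Wilson 95% intervals. The share falls from 60.8 to 3.73% and from 37.2 to 1.44%.

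Many absent peaks had a treated peak nearby. The same distance was not measured for the grid, so that the values below are a description only. The nearest lay at a median distance of 4819 bp (4043 to 5732), and 239 (26.0%) had one within 1 kb and 616 (67.1%) within 10 kb. The median was 6947 bp for low-GC and 3803 bp for GC-rich absent peaks. For 272 of the 307 low-GC absent peaks the nearest treated peak was of the LAP-Smad2 list, and for 364 of the 611 GC-rich ones it was of the longer LAP-Smad3 list. The kept peaks overlapped the LAP-Smad2 treated list alone in 1912 cases, the LAP-Smad3 treated list alone in 91 and both in 590. At the edge of the definition, 6 absent peaks lay within 10 bp of a treated peak. The nearest was chr14:93938899-93939102, which touched one (fold 4.60, −log10 q 6.73). On the other side, 7 kept peaks overlapped by 10 bp or less, the least by 3 bp at chr19:38304480-38304729 (fold 3.34, −log10 q 3.09).

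Few absent peaks were found in the other untreated list, which the definition did not use. Of 918, 39 (4.25%, 3.12 to 5.75) overlapped it, against 652 (25.1%) of kept peaks and 19.7% of the whole list. With other definitions of absence the share was 10.5% (mutual overlap of at least 50%), 12.0% (summits within 100 bp) and 2.06% (no treated peak within 1 kb). The share was lower among absent peaks in both GC classes (3.58 against 28.5%, and 4.58 against 22.7%) and in each of the 4 parts by −log10 q, with 5.85, 3.25, 1.79 and 14.3% against 13.4, 17.9, 22.5 and 39.2%. Of the 39, 11 had at most 50% GC, 8 of them with the 5 bp period, and 18 of the 28 GC-rich ones had another copy. Of the kept peaks found there, 270 of 312 low-GC ones had the 5 bp period and 293 of 340 GC-rich ones another copy. Among GC-rich single-copy peaks, 10 of 546 absent and 47 of 805 kept peaks were found there. At protein-coding promoters these single-copy counts were 4 of 288 and 3 of 419, so that the share was not lower among absent peaks. In the other untreated list, whose absent peaks were found with the same treated lists, 4921 of 11266 (43.7%) were absent. There 53.4% of absent and 12.7% of kept peaks had at most 50% GC. This direction is opposite to the shift over the whole of the list studied here and the same as in each of its 4 parts by −log10 q. The peaks of the other list were not divided by −log10 q. In the other untreated list the 171 or 342 bp period was found in 17 of the 4921, 16 of them above 50% GC.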

How the data were processed

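Anti-GFP ChIP-seq was performed in 4 conditions with 1 library each. Alignment to hg38 was done by the authors with Bowtie2, and MACS2 then called peaks from reads lengthened to 200 bp, keeping a q-value below 0.05. One list was deposited per library. The submitters' notes also name bedtools. Fold enrichment over local background is a ratio computed by the authors' peak caller, and the p-value and q-value were deposited as −log10 values. Filters, the control library and the handling of reads with several alignments are not given in the sources used here, and the lists hold no depth.

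Overlap of at least 1 bp between intervals defined absent peaks. GC content, tandem periods (best self-identity of at least 45% in 1000 bp at lags of 2 to 400 bp, with a tolerance of 6 bp around the monomer length, the most frequent lag of 100 to 250 bp in the grid, and its double) and motifs were computed on hg38 with Python 3.11.15, numpy 2.4.6, pandas 2.3.3 and pysam 0.24.0, from 200 bp centre windows. Copies were found with minimap2 2.31 (up to 50 further alignments) and mitochondrial matches with blastn 2.17.0 (E-value of at most 1e-05). Transcripts came from GENCODE release 44. Intervals are Wilson, Newcombe and order-statistic intervals at 95%. The functions were tested on simulated data, and 11 of 11 checks passed.

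The absent peaks, gene lists and features were chosen with earlier results of these data known. The GC division, the periods, the mitochondrial match, the parts by −log10 q and the kinds of window were set after the values had been seen. Named genes were the 25 protein-coding genes with the strongest absent peak within 3 kb of a start, those with 3 or more absent peaks, listed genes with one within 10 kb, the 10 strongest absent peaks and the 5 with the lowest and highest GC, of which 1 is not reported here. The 26 genes with 2 absent peaks were named in part after their values were seen. The alternatives were stricter q-values, other definitions of overlap, copy and promoter, summit windows, and leaving out the SMAD2 and SMAD3 loci or windows with copies.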

Additional observations from a re-analysis of the deposited data

How the results depend on the processing

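With q below 1e-05 in the untreated list, 315 peaks were absent (16.2%), with a median GC of 56.0%, another copy in 42.5%, a promoter in 33.3% and overlap with the other untreated list in 2.86%. With a mutual overlap of at least 50%, these were 1460 peaks (41.6%), 40.1% with a copy and 10.5% in the other list. With summits within 100 bp, they were 1614 peaks (46.0%), 41.6% and 12.0%. Counting treated peaks within 1 kb as overlapping left 19.3% absent, 2.06% of them in the other list. Promoters were 39.4% at 1 kb and 32.6% for protein-coding starts alone. Without windows with another copy, the median GC was 68.5%, promoters made up 62.5% and overlap with the other list 2.49%. A q below 0.01 in either kind of list, summit windows, copies at 80 or 95% identity and leaving out the SMAD2 and SMAD3 loci left these values within their intervals. Of alternatives added after seeing the data, dividing the GC classes at 45 or 55% gave copies in 82.2 and 78.2% of low-GC and 12.5 and 10.7% of GC-rich absent peaks. A repeat identity of at least 55% gave the 171 or 342 bp period in 18.0%. No paired analysis was possible because each condition has 1 library. The depth of each library beyond the stated minimum is unknown and limits what absence from a list means.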

Other observations

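Of the GC-rich absent peaks away from any transcript start, the strongest was chr12:42653363-42653595 in an intron (fold 6.05, −log10 q 10.6, 59.0% GC), and its window reached the limit of 51 listed alignments. The next, chr5:3827676-3827893 between genes (fold 5.82, −log10 q 9.72) and chr20:63815133-63815411 in an intron (fold 4.80, −log10 q 9.43), were single-copy. The absent peak with the lowest GC content, chr3:108575500-108575787 (23.5%), lay in CIP2A, which encodes an inhibitor of the phosphatase PP2A, and was also in the other untreated list. It was 87530 bp from the nearest treated peak. The other 4 with the lowest GC, from 28.0 to 29.0%, lay in introns of NPNT (chr4:105936057-105936292, fold 3.07) and of 2 unnamed genes (chr22:11871768-11871970, fold 3.36, and chr11:96749780-96750010, fold 4.32) and between genes (chr15:22302120-22302319, fold 3.63). Of the 10 absent peaks with the highest −log10 q, those not described above were the 5 bp repeats at chr17:21979434-21979777 (fold 2.55, −log10 q 12.2) and chrY:10899818-10900022 (fold 5.20, −log10 q 11.9), both also in the other untreated list, and the array at chr22:14745805-14746133 (fold 5.24, −log10 q 11.6), whose lag was 171 bp. Of the 5 absent peaks with the highest GC, those in introns of GPD2 and WDR33 had 39 and 51 listed alignments, and those at the starts of HMGN1, a nucleosome-binding protein gene, and MZT2A had 1 and 2.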
